A study of Mus musculus with 10 samples.

Results

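The expression of 41 genes of DNA replication and S phase was followed in the jejunum (the small intestine between duodenum and ileum) of mice with and without Klf9. The genes were given by symbol, and a probe set, a group of short oligonucleotide probes reading 1 transcript, was taken where the array's annotation gave that symbol alone. Of 41 named genes 40 had such a probe set, among 12393 genes with 1 symbol on the array, and where a gene had several, the brightest on average represented it. Gins2 was not analysed here, as no probe set carried its symbol alone. Of the 40, 35 had a mean signal above 123, the 40th percentile of all probe sets, and were tested, while Orc1, Cdc6, Pole, Tyms and Ccne2 lay below it.

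The samples were 10 Affymetrix mouse 430A arrays of total jejunal RNA from male mice at postnatal day 30. Klf9, Kruppel-like factor 9, belongs to the Sp and KLF family of DNA-binding zinc finger proteins. The label Klf9 knockout (Klf9-/-) was carried by 5 arrays and the label wild type by 5, and the design text assigns each array to 1 animal, although a labelling protocol speaks of RNA pools. For knockout replicate 1 the group was read from the title, as another label mentions both genotypes. Strain, diet and the deleted part of Klf9 are not given in the sources used here, and nothing in the labels restricts the loss of Klf9 to a cell type.

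DNA replication starts at origins, where the origin recognition complex with Cdc6 and Cdt1 loads the ring-shaped Mcm2 to Mcm7 helicase in G1. Cyclin E with Cdk2, Cdc45 and the GINS complex then start the helicase, primase with polymerase alpha lays down primers, and polymerases delta and epsilon copy the strands on the Pcna clamp. In the small intestine S phase takes place in the dividing cells of the crypt, while the absorptive enterocytes of the villus have left the cell cycle. Many of these genes are known targets of E2F transcription factors, which act at the passage from G1 to S phase.

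Median signals lay between 171 and 194 after the authors had scaled all arrays alike, and every pair of arrays correlated at 0.946 to 0.977 across the tested probe sets. Klf9 itself went against the labels on both arrays labelled replicate 1. Its brightest probe set read 944 on knockout replicate 1 against 340 to 526 on the other knockout arrays, and 551 on wild type replicate 1 against 964 to 1320 on the other wild type arrays. Every direction below therefore rests on labels that Klf9 contradicts on 2 arrays, and knockout and wild type stand throughout for arrays so labelled. The number of arrays, 5 a group, limits the precision of each value.

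The comparison of knockout with wild type asks whether loss of Klf9 alters jejunal replication genes, the study's title being about proliferation in the crypt. No replication gene passed the test. In limma, with p-values adjusted by Benjamini-Hochberg across the 13579 probe sets tested, 0 of 35 genes had an adjusted p under 0.05, where the share over all probe sets was also 0%. The lowest adjusted p among the genes was 0.620. Klf9 itself did not pass either, with a log2 difference of -0.86 ± 0.25 (SE; limma adjusted p = 0.466) on its brightest probe set. The test therefore cannot exclude small differences in the replication genes. One gene, Pold1, had an unadjusted p under 0.05, or 2.86% of the 35, against 7.89% of all tested probe sets. None of the 35 had groups without overlap, against 1.55% of all probe sets. By the exact two-sided permutation test, 3 genes (Cdt1, Pola2 and Pold1) had an unadjusted p under 0.05, or 8.57%, against 7.77% of all. All of these shares lie near or under the background.

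The differences were small and leaned upward. Of the 35 genes 27 were higher and 8 lower on the knockout arrays, 77.1% higher against 48.6% of all tested probe sets, with a median log2 difference of 0.08 against -0.01 over all probe sets. A log2 difference here is on the scale of log2(signal + 50), which understates the change of dim genes. The 95% intervals of limma stayed inside a 2-fold change in either direction for all 35 genes, and inside a 1.5-fold change for 27. Leaving out 1 array turned the lean in the case of knockout replicate 3, without which 16 genes were higher and 19 lower with a median of -0.04. Without any other single array 21 to 34 genes were higher, with 34 and a median of 0.14 without wild type replicate 3. Without both arrays labelled replicate 3, 26 genes were higher with a median of 0.04. Without wild type replicate 5 the median was 0.01, with 21 genes higher. Without both arrays labelled replicate 1, whose Klf9 signals went against the labels, 27 genes were higher with a median of 0.13, and 0 of 35 passed, while 9 of all probe sets did.

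**Figure D1:**
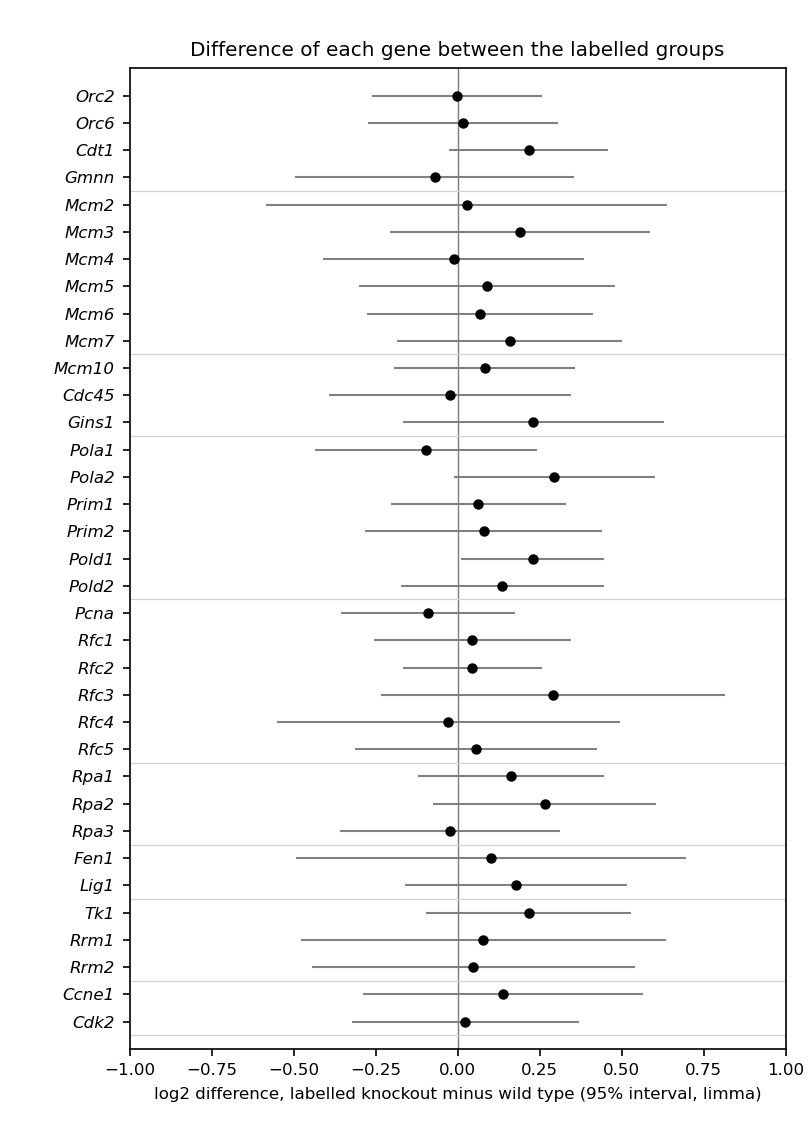
Log2 difference of each of the 35 tested genes between the groups (labelled knockout minus labelled wild type, log2(signal + 50)), with bars for the 95% interval from limma and thin lines between roles. The points lie between -0.10 and 0.29, and 1 interval, that of Pold1, leaves out 0.

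The replication genes varied together from array to array, in both groups. A score was taken for each array as the mean over the 35 genes of the log2 distance from the gene's mean over all 10 arrays. In knockout replicates 1 to 5 the score was -0.24, -0.01, 0.43, -0.08 and 0.12, and in wild type replicates 1 to 5 it was -0.22, -0.00, 0.25, -0.03 and -0.22. Both arrays labelled replicate 3 were thus high, at 1.35 and 1.19 times the mean of all arrays, and knockout replicate 1 and wild type replicates 1 and 5 were low, at 0.846 to 0.860 times. The group means were 0.05 ± 0.25 (SD, n = 5) for knockout and -0.05 ± 0.19 (SD, n = 5) for wild type. Their difference, 0.09, is smaller than the SD within either group, and the range over all arrays, 0.67, is larger.

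Gene by gene, 34 of the 35 lay above their own mean on knockout replicate 3 and 30 on wild type replicate 3. Knockout replicate 3 held the highest value of all 10 arrays for 22 genes and wild type replicate 3 for 10. The lowest values fell on knockout replicate 1 for 11 genes, wild type replicate 1 for 9 and wild type replicate 5 for 8. Within the knockout group, replicate 3 was the highest array for 30 genes, and within the wild type group replicate 3 was so for 25.

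**Figure D2:**
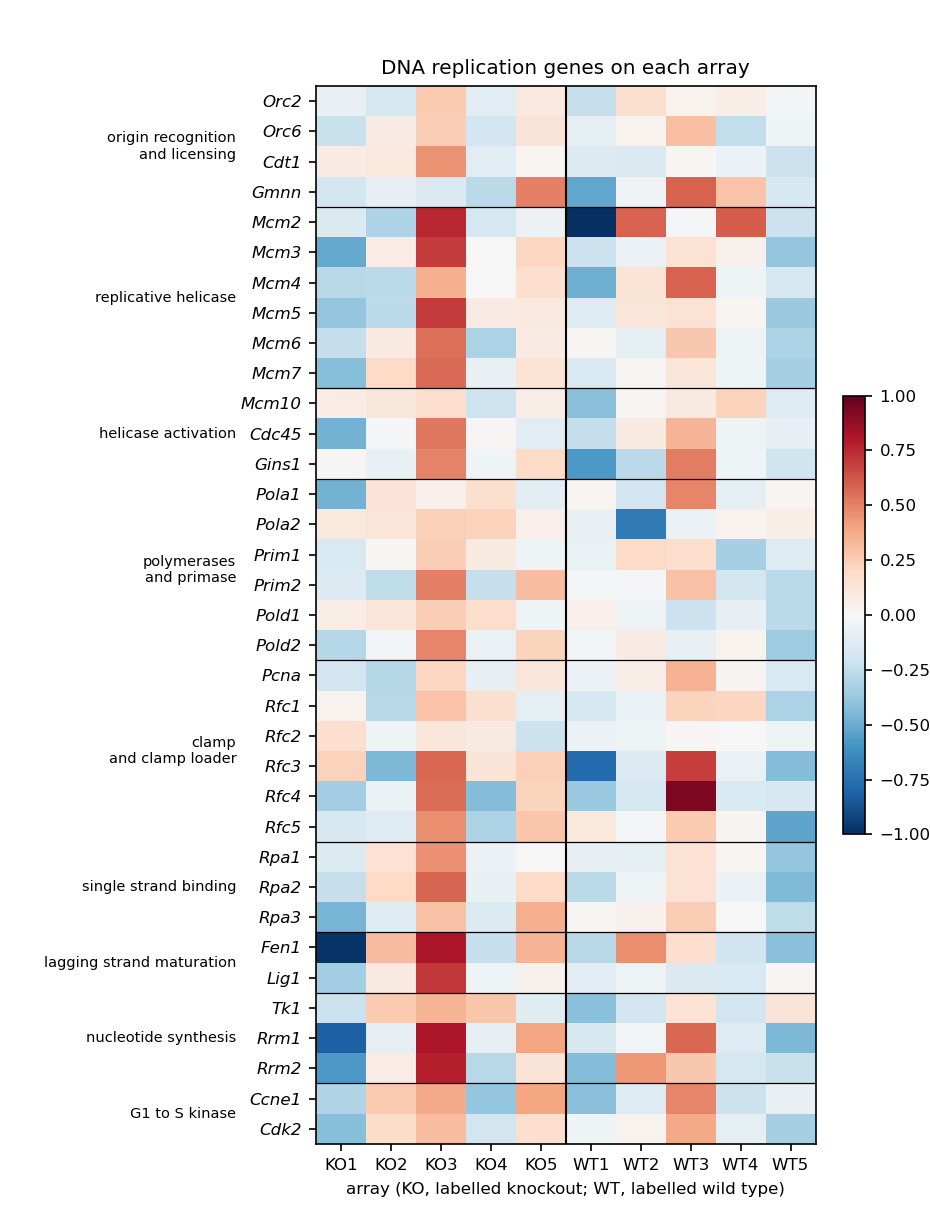
Each row is 1 of the 35 tested genes, grouped by role, and each column 1 array (KO, labelled knockout; WT, labelled wild type; digits, replicate); colour gives log2(signal + 50) minus the gene's mean over 10 arrays and saturates at -1 and 1. The columns KO3 and WT3 are mostly red, and KO1, WT1 and WT5 mostly blue.

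Likeness between genes was measured as the Pearson correlation of log2 values over the 10 arrays, as a description of these arrays. Over the 595 pairs of replication genes it had a mean of 0.50 and was above 0 in 92.3%, against a mean of 0.01 over all pairs of tested probe sets. With each group centred on its own mean the average was again 0.50, and with quantile normalization 0.45. The arrays share processing and scaling, so the points are not free of common effects. The mean was 0.35 without knockout replicate 3, and 0.27 without both arrays labelled replicate 3, a choice made after seeing the data. Without any other single array the mean was 0.49 to 0.53, and without both arrays labelled replicate 1 it was 0.50.

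The genes closest to the mean of the other 34 were Rrm1 (0.93), the large subunit of ribonucleotide reductase, Mcm3 (0.93), Rpa2 (0.92) and Mcm7 (0.91). In all 16 genes exceeded 0.8 and 29 exceeded 0.5. The genes least like the others were Rfc2 (-0.02), Pola2 (0.06), Pold1 (0.19) and Pola1 (0.43). Rfc2 and Pold1 also varied little, with an SD of log2 values over the 10 arrays of 0.108 and 0.165. Orc2, with an SD of 0.152, still correlated at 0.72 with the others. Pola2 had 1 array, wild type replicate 2, far below the others at 136.7. Why these genes were less alike was not tested. Pola2 and Pold1, with the lowest unadjusted p among the 35, are thus 2 of the 3 genes that shared least of the common pattern.

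The promoter sequences of these genes were searched for motifs, as a feature not used to choose them. Promoters from 250 bases before to 50 after the start site were taken from RefSeq (GRCm38.p6), the first listed per gene, and 33 of the 41 genes had one. Forms of the E2F motif were searched on both strands, with overlapping matches allowed: the letters TTCCCGC, the form with TTGGCGC, the form with TTGCCGC and the form with TTCGCGC. At least 1 stood in 18 of the 33 promoters (54.5%), against 9.69% of 27025 promoters in the table. By comparison the letters TTTGAA, the CHR element of late cell cycle genes, stood in 3 of 33 (9.09%), against 18.1% of all promoters and 20 of 28 mitosis genes (71.4%). The E2F letters stood in 4 of these 28 mitosis promoters (14.3%). A match is a description of letters and not a site of binding.

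The letters CCAAT stood in 22 of 33 promoters (66.7%) against 37.9% of all, and GGGCGG, the GC box read by Sp and KLF factors, in 23 (69.7%) against 35.9%. Among mitosis genes each of these stood in 21 of 28 promoters (75%). CACCC, another box read by KLF factors, stood in 20 of 33 (60.6%) against 56.7%. The GC box and E2F letters can share bases, and the table of all promoters holds many kinds of genes, with no matching for base composition. The promoters of 4 genes are printed 5′ to 3′ on the strand of the gene, with E2F letters of either strand in capitals. They show a helicase gene with overlapping matches, a polymerase gene with the most matches among the 4, a nucleotide synthesis gene with 1, and the clamp gene with none of these letters.
Mcm5 (chr8:75109259-75109558, plus strand): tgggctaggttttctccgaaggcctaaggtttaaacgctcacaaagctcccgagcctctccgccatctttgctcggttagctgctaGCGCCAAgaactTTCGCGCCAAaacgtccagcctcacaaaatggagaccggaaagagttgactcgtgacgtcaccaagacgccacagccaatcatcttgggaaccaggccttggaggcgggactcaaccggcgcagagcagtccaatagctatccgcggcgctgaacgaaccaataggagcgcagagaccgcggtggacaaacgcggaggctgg
Pola1 (chrX:93632106-93632405, minus strand): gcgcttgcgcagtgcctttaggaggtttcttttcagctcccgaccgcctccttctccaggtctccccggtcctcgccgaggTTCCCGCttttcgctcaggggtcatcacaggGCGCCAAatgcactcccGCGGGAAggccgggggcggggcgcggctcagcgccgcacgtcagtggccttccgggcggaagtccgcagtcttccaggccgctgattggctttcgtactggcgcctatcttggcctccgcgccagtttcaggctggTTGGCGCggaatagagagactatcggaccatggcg
Rrm2 (chr12:24708004-24708303, plus strand): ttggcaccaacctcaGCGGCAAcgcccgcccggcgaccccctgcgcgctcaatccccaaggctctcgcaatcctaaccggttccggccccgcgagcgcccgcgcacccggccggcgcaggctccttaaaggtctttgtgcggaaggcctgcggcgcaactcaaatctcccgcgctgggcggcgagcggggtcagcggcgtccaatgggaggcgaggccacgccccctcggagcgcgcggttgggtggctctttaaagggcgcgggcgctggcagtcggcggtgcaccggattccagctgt
Pcna (chr2:132253131-132253430, minus strand): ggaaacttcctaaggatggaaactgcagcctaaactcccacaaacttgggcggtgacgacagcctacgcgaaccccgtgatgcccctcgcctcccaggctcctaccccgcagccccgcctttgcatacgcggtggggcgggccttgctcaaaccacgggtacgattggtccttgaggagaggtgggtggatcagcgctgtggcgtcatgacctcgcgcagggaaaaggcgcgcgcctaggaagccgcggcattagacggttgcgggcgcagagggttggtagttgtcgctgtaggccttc

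In Mcm5 the matches began 164, 152 and 149 bases before the start site, and the last pair overlapped. In Pola1 they began 169, 138 and 121 bases before it and 15 bases after. The 16 tested genes with a match had a median correlation with the other genes of 0.84 (0.19 to 0.93), and the 14 with a promoter but no match had one of 0.76 (0.06 to 0.87), so the ranges overlapped.

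**Figure D3:**
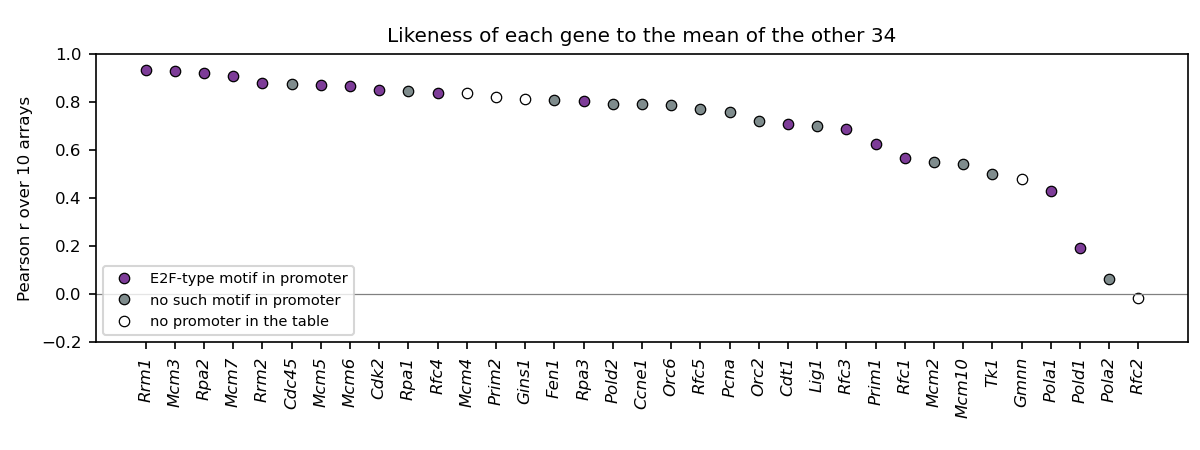
Pearson correlation over 10 arrays of each of the 35 tested genes with the mean of the other 34; purple points have an E2F-type motif in the promoter, grey points have a promoter without one and open points no promoter in the table. Values run from 0.93 (Rrm1) to -0.02 (Rfc2), and both purple and grey points occur along the range.

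Origin recognition and licensing genes were 2 higher and 2 lower of the 4 tested. Cdt1, which loads the helicase, read 1058, 1079, 1380, 919 and 1011 in knockout replicates 1 to 5 and 902, 901, 1005, 959 and 854 in wild type replicates 1 to 5. Knockout replicates 1, 2, 3 and 5 lay above all wild type arrays, replicate 5 by a small margin, and knockout replicate 4 lay within them. The log2 difference was 0.22 ± 0.11 (SE; limma adjusted p = 0.664; exact permutation p = 0.0317). It was 0.23, 0.19 and 0.23 within the 3 wash runs, groups of arrays inferred from recorded hybridization times. It was 0.13 without knockout replicate 3, and 0.14 ± 0.13 on another tested Cdt1 probe set.

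Gmnn, geminin, the inhibitor that binds Cdt1 after licensing, was among the 3 lowest differences. It read 520, 561, 535, 488 and 870 in the knockout arrays and 402, 583, 927, 741 and 530 in the wild type arrays. The groups overlapped, with highs on knockout replicate 5 and wild type replicate 3, and the log2 difference was -0.07 ± 0.20 (SE; adjusted p = 0.953). Without one or another array it lay between -0.21 and 0.07. Orc2 and Orc6, subunits of the origin recognition complex, differed by -0.00 ± 0.12 and 0.02 ± 0.13 (SE), with signals of 137 to 213 and 134 to 220 over the 10 arrays.

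The 6 helicase subunits were 5 higher and 1 lower. Mcm2 read 643, 569, 1239, 626 and 687 in the knockout arrays and 325, 1104, 704, 1116 and 609 in the wild type arrays. It had the widest spread of the 6, 3.44-fold between the highest and lowest array, and its highs in the wild type fell on replicates 2 and 4 rather than 3. Here and below the spread is given for signal + 50. Its log2 difference was 0.03 ± 0.28 (SE), with a 95% interval of -0.58 to 0.64. The Mcm2 probe set, like those of Mcm3 and Mcm7, has a suffix for probes that may also read other transcripts, and a second Mcm2 probe set gave 0.02 ± 0.14.

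Mcm3 read 356, 559, 888, 530 and 616 in the knockout arrays and 448, 505, 587, 545 and 393 in the wild type arrays, with the highest and the lowest array both knockout. The log2 difference was 0.19 ± 0.18 (SE; adjusted p = 0.834). Mcm4 read 440, 443, 712, 543 and 618 against 375, 604, 848, 529 and 479, and both replicate 3 arrays were again the highest of their groups (-0.01 ± 0.19; adjusted p = 0.992). Mcm5 read 281, 313, 655, 409 and 416 against 347, 423, 429, 391 and 286, so that knockout replicate 3 stood alone above the rest (0.09 ± 0.18; adjusted p = 0.937).

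Mcm6 read 689, 881, 1230, 652 and 876 in the knockout arrays and 830, 769, 1004, 792 and 656 in the wild type arrays (0.07 ± 0.16 SE; adjusted p = 0.943). Mcm7 read 1474, 2300, 2988, 1896 and 2200 against 1796, 2018, 2174, 1935 and 1583 (0.16 ± 0.16 SE; adjusted p = 0.839). In both genes the arrays overlapped across groups and replicate 3 was the highest of each group. The other 3 probe sets of Mcm7 were split, at 0.34 ± 0.17, 0.22 ± 0.13 and -0.06 ± 0.15.

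**Figure D4:**
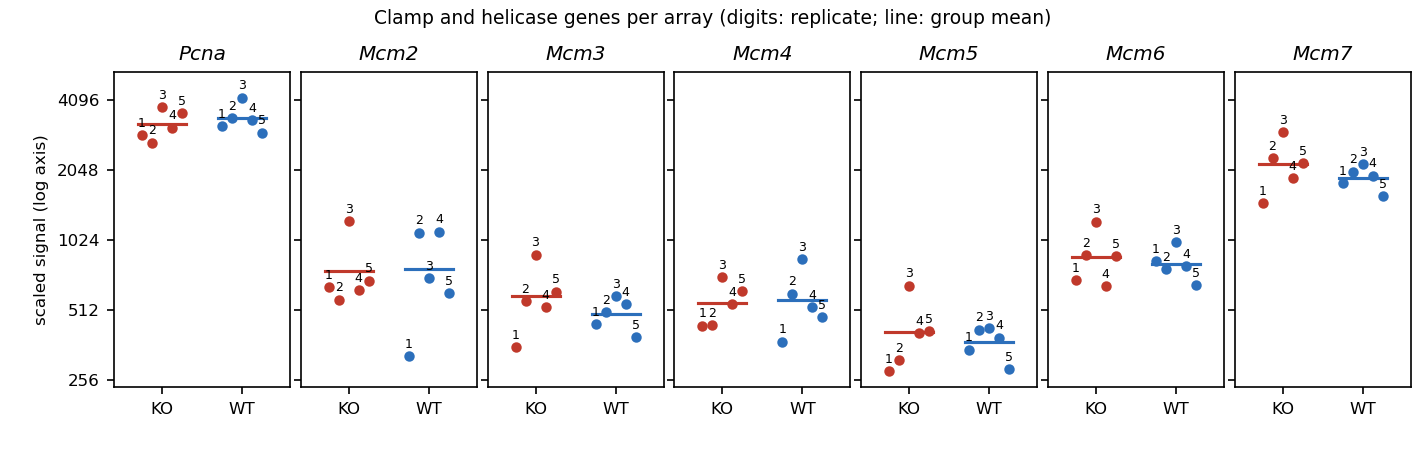
Scaled signal on a log axis of Pcna and Mcm2 to Mcm7 in the 5 arrays labelled knockout (KO, red) and the 5 labelled wild type (WT, blue); digits give the replicate and lines the group mean. Replicate 3 is the highest of both groups in all but Mcm2, where wild type replicates 2 and 4 are higher, and the groups overlap in every gene.

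Helicase activation genes were 2 higher and 1 lower. Gins1, a GINS subunit, was just above the limit for testing with a mean signal of 132, where Cdc6, at 113, fell just below it. Gins1 read 129, 119, 199, 122 and 152 in the knockout arrays and 68.9, 97.4, 203, 122 and 105 in the wild type arrays, high on both replicate 3 arrays (0.23 ± 0.19 SE; adjusted p = 0.793). Cdc45, the helicase cofactor, ranged from 94.4 to 239 with highs on the same arrays (-0.02 ± 0.17), and Mcm10, which helps to start the fork, from 289 to 482 (0.08 ± 0.13).

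Polymerase and primase genes were 5 higher and 1 lower of the 6 tested. Pold1, the catalytic subunit of polymerase delta, read 478, 498, 549, 518 and 440 in the knockout arrays and 471, 436, 383, 427 and 369 in the wild type arrays. Knockout replicates 1 to 4 lay above every wild type array, and replicate 5 lay within the wild type range. The log2 difference was 0.23 ± 0.10 (SE; limma unadjusted p = 0.0405, adjusted p = 0.620; exact permutation p = 0.0159, where 0.00794 is the smallest that 5 against 5 allows). It was 0.10, 0.36 and 0.23 within the wash runs, 0.19 to 0.27 without 1 array, and 0.17 ± 0.14 on another probe set. Within fluidics module 4, the only module with arrays of both labels, it was 0.03, from 1 knockout array.

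Pola2, the regulatory subunit of polymerase alpha, had the largest difference of the 35. It read 278, 283, 310, 308 and 266 in the knockout arrays and 241, 137, 244, 262 and 271 in the wild type arrays. Wild type replicate 2 was far below the others, and wild type replicate 5 lay within the knockout range. The log2 difference of 0.29 ± 0.14 (SE; adjusted p = 0.640; exact permutation p = 0.0159) was 0.15 without wild type replicate 2, and -0.02 within wash run 3 against 0.50 and 0.24 in runs 1 and 2. A dimmer Pola2 probe set, below the limit for testing, differed by -0.19.

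Pola1, the catalytic subunit of the same polymerase, had the lowest difference of the 35. It read 99.4, 178, 166, 183 and 142 in the knockout arrays and 161, 132, 242, 144 and 160 in the wild type arrays, with the groups overlapping (-0.10 ± 0.16 SE; adjusted p = 0.914). Prim1 and Prim2, the primase subunits, differed by 0.06 ± 0.12 and 0.08 ± 0.17, and Pold2, a small subunit of polymerase delta, by 0.14 ± 0.14 (SE). Prim2 and Pold2 were highest on knockout replicate 3, at 229 and 850.

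The clamp and clamp loader genes were 4 higher and 2 lower. Pcna, the sliding clamp that holds the polymerases on DNA and a common marker of cycling cells, read 2883, 2688, 3811, 3111 and 3593 in the knockout arrays and 3168, 3429, 4196, 3362 and 2960 in the wild type arrays. Replicate 3 was the highest array of each group, and the groups overlapped. The log2 difference was -0.09 ± 0.12 (SE; adjusted p = 0.898), with a 95% interval of -0.36 to 0.18.

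Rfc3, a subunit of the loader that opens the clamp, had the second largest difference. It read 203, 108, 271, 187 and 205 in the knockout arrays and 75.8, 147, 299, 156 and 110 in the wild type arrays, lowest on wild type replicate 1 and highest on wild type replicate 3. The log2 difference was 0.29 ± 0.24 (SE; adjusted p = 0.799), 0.13 to 0.50 without 1 array, and -0.02 ± 0.19 on its other probe set. Rfc4, of the same complex, read 395 on wild type replicate 3 and at most 160 on the other wild type arrays (-0.03 ± 0.24). The Rfc4 probe set has a suffix for probes that may also read other transcripts, and its other tested probe set gave 0.18 ± 0.22. Rfc1, Rfc2 and Rfc5 differed by 0.05 ± 0.14, 0.04 ± 0.10 and 0.06 ± 0.17, and Rfc2 varied least over the 10 arrays, 1.31-fold.

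The subunits of replication protein A, which coats single-stranded DNA, were 2 higher and 1 lower. Rpa2 had the third largest difference. It read 173, 251.9, 342, 199 and 250 in the knockout arrays and 168, 205, 241, 201 and 144 in the wild type arrays. Knockout replicates 2, 3 and 5 lay above all wild type arrays, and knockout replicates 1 and 4 within them (0.27 ± 0.16 SE; adjusted p = 0.696). Its other tested probe set gave -0.08 ± 0.17. Rpa1 and Rpa3 differed by 0.16 ± 0.13 and -0.02 ± 0.16 (SE). Rpa1 was highest on knockout replicate 3, at 1725, and Rpa3 was lowest on knockout replicate 1, at 311.

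In lagging strand maturation, Fen1, the flap endonuclease that trims Okazaki fragments, had the widest spread of all 35 genes, 3.45-fold. It read 760, 1941, 2740, 1311 and 1969 in the knockout arrays and 1268, 2157, 1746, 1344 and 1144 in the wild type arrays, so both extremes were knockout arrays (0.10 ± 0.28 SE; adjusted p = 0.950). Its probe set has a suffix for probes that may read other transcripts. Lig1, the ligase that seals the fragments, ranged from 500 to 1093 in the knockout and only from 581 to 655 in the wild type (0.18 ± 0.16). Without knockout replicate 3 the difference of Lig1 was 0.02.

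For nucleotide synthesis, all 3 tested genes were higher by a small amount. Rrm1 read 311, 542, 1060, 541 and 783 in the knockout arrays and 516, 572, 895, 529 and 413 in the wild type arrays, a 3.08-fold spread that followed the common pattern (0.08 ± 0.26 SE; adjusted p = 0.960). Rrm2, the small subunit of the same enzyme, ranged from 468 to 1276 (0.05 ± 0.23), and Tk1, thymidine kinase of the salvage route, from 363 to 648 (0.22 ± 0.15). The Rrm2 probe set has a suffix for probes that may also read other transcripts. The other Rrm1 probe set gave -0.24 ± 0.20, opposite in sign to the brighter one. Of 21 other tested probe sets, which belonged to 16 of the genes, 14 had the sign of the brightest. In limma 0 had an unadjusted p under 0.05. The median correlation with the brightest over arrays was 0.64 (0.14 to 0.89).

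Cyclin E1 (Ccne1), which with Cdk2 opens S phase, ranged from 90.2 to 213 and differed by 0.14 ± 0.20 (SE), and Cdk2 ranged from 226 to 433 and differed by 0.02 ± 0.16. Both had their highest value on wild type replicate 3. The 5 genes below the limit for testing had these levels: Cdc6 24.1 to 187, Ccne2 47.7 to 135, Orc1 46.4 to 115, Pole 8.10 to 146 and Tyms 21.5 to 63.1 over the 10 arrays. Their groups overlapped in every case, with log2 differences of 0.06, 0.06, -0.04, 0.30 and -0.18, which were not tested. Counting them, 30 of 40 measured genes were higher on the knockout arrays.

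Other genes of replication, 39 tested from a list of 51, were 20 higher and 19 lower with a median log2 difference of 0.01. In limma 0 had an adjusted or an unadjusted p under 0.05. Orc3 had a limma unadjusted p of 0.0501, while its exact permutation p was 0.0317. The 3 of lowest p were Orc3 (-0.22 ± 0.10 SE; adjusted p = 0.633), another origin recognition subunit, Top1 (-0.21 ± 0.12), topoisomerase I, and Uhrf1 (0.29 ± 0.19), which guides DNA methylation after the fork. Mitosis genes, 30 tested from a list of 35, were 17 higher and 13 lower with a median of 0.03, and 1 had an unadjusted p under 0.05 in limma. This was Pttg1, securin, at 0.28 ± 0.12 (limma adjusted p = 0.614, exact permutation p = 0.0556). Incenp (0.30 ± 0.14) and Bub1b (0.26 ± 0.14), of the chromosomal passenger complex and the spindle checkpoint, followed.

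Both lists had the array pattern of the replication genes. Either replicate 3 array was the highest of the 10 for 30 of the 39 other replication genes and for 26 of the 30 mitosis genes. The mean of the mitosis list was 0.44 on knockout replicate 3 and 0.24 on wild type replicate 3, and -0.36 on knockout replicate 1. Mki67, the proliferation antigen Ki-67, read 1137, 1383, 1978, 1467 and 1441 in the knockout arrays and 1227, 1361, 1907, 1299 and 1301 in the wild type arrays. It was thus highest on the same pair of arrays (0.06 ± 0.15 SE; adjusted p = 0.949).

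Among 8255 genes outside the members, the 10 whose log2 values followed the replication score most closely over the 10 arrays had Pearson correlations of 0.93 to 0.97. They were Anp32e, a histone chaperone for H2A.Z, Lyar, a nucleolar protein, Trip13, a remodeller of spindle checkpoint complexes, Rcc1, the exchange factor for Ran on chromatin, and Dtymk, thymidylate kinase. Top2a, topoisomerase II alpha, Tex10, Tmpo, a lamina-associated protein, Gjb2, connexin 26, and Mki67 completed them. Anp32e was nearest (0.97), with 634, 801, 1304, 715 and 912 in the knockout arrays and 632, 746, 949, 862 and 600 in the wild type arrays. Of the 100 nearest genes, 5 belonged to the list of other replication genes and 3 to the mitosis list. Those lists held 39 and 30 of the 8255 genes ranked.

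Enterocyte genes ran the other way on the same arrays. In bulk RNA, fewer cells of a type and less RNA per cell cannot be told apart. All 13 tested absorptive enterocyte markers, of 17 listed, had their lowest value on a replicate 3 array, 8 on knockout replicate 3 and 5 on wild type replicate 3. The mean of that list was -0.39 and -0.35 there, and 0.21, 0.13 and 0.35 on knockout replicate 1 and wild type replicates 1 and 5, where the replication score was low. It was also high, at 0.27, on wild type replicate 2, where the replication score was near 0. Lct, the lactase of the brush border, read 5732 and 5446 on the replicate 3 arrays and 8022 to 13870 on the others. Between the groups the list was 3 higher and 10 lower, with a median of -0.14, and its summed signal lay between 118779 and 176985 in the knockout and 123952 and 198745 in the wild type. The part of tissue composition in the replication values was not tested.

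**Figure D5:**
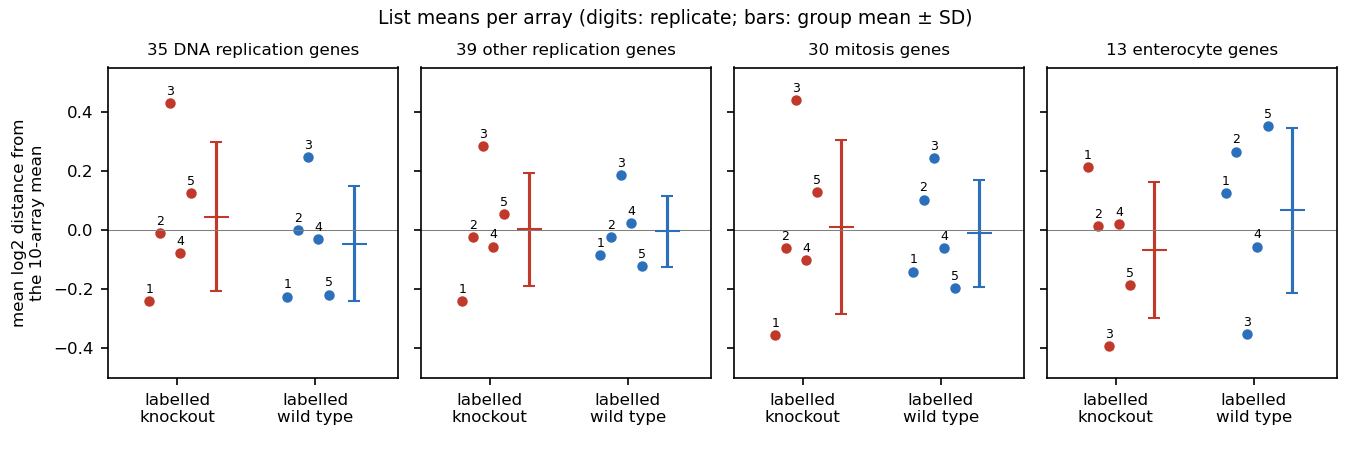
Mean log2 distance from the 10-array mean for each array, over the 35 replication genes, 39 other replication genes, 30 mitosis genes and 13 enterocyte genes; points are arrays, digits the replicate, and bars the group mean ± SD (n = 5). Replicate 3 is the highest of both groups in the first 3 panels and the lowest of both in the enterocyte panel.

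Other cell type lists moved less closely with the score. Crypt base stem cell markers, 11 tested of 15, had means of 0.15 and 0.12 on the replicate 3 arrays and -0.14, -0.13 and -0.07 on the 3 low arrays. That list was highest on wild type replicate 4, at 0.19, where the replication score was -0.03. Goblet cell markers, 7 tested of 8, were lowest on knockout replicate 3 (-0.35, the lowest array for 5 genes) but near 0 on wild type replicate 3 (0.01). B and plasma cell markers, 10 tested of 13, opposed each other there, at -0.51 on knockout replicate 3 and 0.34 on wild type replicate 3, and T cell markers, 8 of 14, lay at 0.08 and -0.12. General epithelial markers, all 11 tested, were at 0.02 and -0.21. Of 7 germinal centre B cell markers only 1, Bcl6, passed the limit, so cycling B cells could not be followed by that list. Between the groups all 9 tested smooth muscle markers and all 5 tested fat cell markers were higher on the knockout arrays, by a mean log2 difference of 0.34 and 0.80. Lower on the knockout arrays were 9 of 10 B and plasma cell markers (mean -0.32), 5 of 5 endothelial markers (-0.23) and 4 of 4 Paneth cell markers (-0.20). T cell markers were lower in 7 of 8 (-0.15) and goblet cell markers in 6 of 7 (-0.14). None of these markers had an adjusted p under 0.05 in limma. An unadjusted p under 0.05 was held by 3 each of the smooth muscle, fat, and B and plasma cell lists and 2 of the endothelial list. The Paneth, T and goblet cell lists had 0. Over all tested probe sets 7.89% had such a p, and 48.6% were higher on the knockout arrays. General epithelial markers were 6 higher and 5 lower, and 3 of the higher ones had such a p. They were Cdx1 (0.50 ± 0.14 SE), Cdx2 (0.44 ± 0.13) and Krt18 (0.28 ± 0.11). Stem cell markers were 6 higher and 5 lower and macrophage markers 4 and 5, each with 1 such p. Fibroblast markers were 6 higher and 3 lower, with 0. On the replicate 3 arrays the fat list lay at 0.22 in the knockout and -1.12 in the wild type. The part of these cell types in the replication values was not tested.

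The replication score was also set against the fluidics modules and the wash runs. A wash run is here a name for arrays with close hybridization times, and no wash time was read. Within wash runs 1, 2 and 3 the score differed by -0.01, 0.07 and 0.34 between knockout and wild type, the last from 1 array of each label. Within fluidics module 4, the only one with both labels, it differed by 0.14 with 1 knockout array. Both replicate 3 arrays were in wash run 2, which also held both arrays labelled replicate 4, at -0.08 and -0.03. Knockout replicates 1 and 3, the lowest and highest of all, shared module 1, and wild type replicates 1, 3 and 5 shared module 3.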

How the data were processed

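The values were Affymetrix MAS 5.0 signal intensities per probe set, deposited by the authors as 1 table of 10 arrays; the software is named in the series' design text. Every deposited array had a 2% trimmed mean near 500, and was rescaled to exactly 500. The deposited experiment files gave other settings, of which the fluidics module and recorded times were used. The times used for grouping came from the field for the hybridization date. What are called wash runs were inferred from gaps over 45 minutes between them. The scan order came from the field for the scan date.

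Of 22690 probe sets, 64 controls were left out, and 13579 with a mean signal above the 40th percentile (123) were tested, with 7 Klf9 probe sets always kept, 4 of them below it. Gene names came from the platform annotation: 20380 probe sets had 1 symbol, 691 several and 1555 none. Differences of log2(signal + 50) were tested with limma 3.58.1 in R 4.3.3 (trended eBayes, two-sided, Benjamini-Hochberg over all tested probe sets), and per gene with the exact permutation test over all divisions of the arrays into 5 and 5. The script was tested on simulated data.

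The genes and lists were chosen with earlier results of these data known. All members are accounted for by role; of the other lists the 3 genes of lowest p were named, and the 10 genes nearest the score. With nothing said of separate litters or days, p-values measure the spread between these arrays. Alternatives were other offsets, filters, normalizations, weights, blocks for wash run, module and replicate number, the mean over probe sets, and arrays left out.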

Additional observations from a re-analysis of the deposited data

Results flagged for a closer look

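In 9 of 82 groups of 5 values, the highest or lowest array stood apart by a share of the group's range above Dixon's 95% critical value; chance gives about 1 such group in 20. Among tested genes, Gmnn read 869.8 on knockout replicate 5, Mcm2 read 1239 on knockout replicate 3 and Rfc4 read 395.4 on wild type replicate 3, each far above its group. Mcm10 read 341.5 on knockout replicate 4 and Pola2 read 136.7 on wild type replicate 2, each far below its group. The other 4 were of genes too dim to be tested. Cdc6 read 24.09 and Ccne2 read 47.68 on knockout replicate 1, Ccne2 read 71.27 on wild type replicate 2, and Tyms read 62.98 on knockout replicate 4. The cause was not tested.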

How the results depend on the processing

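Under 27 alternative settings, 0 replication genes passed an adjusted p of 0.05 in limma, where the number with an unadjusted p under 0.05 was 0 to 3. Over all probe sets 3 passed with array weights, 9 without both arrays labelled replicate 1 and 1 with probe sets averaged per gene, and with 1 array left out 0 to 5, with 5 without knockout replicate 1, 3 without knockout replicate 5 and 1 without wild type replicate 1. The number of replication genes higher on the knockout arrays was 16 to 34 with 1 array left out. Without both arrays labelled replicate 3, chosen after seeing the data, it was 26 with a median of 0.04, and with the fluidics module as a block 28 with a median of 0.15. The module block rests on module 4 alone, the only module with both labels, which held 1 knockout array. With the replicate block 0 passed, 27 were higher and 0 had an unadjusted p under 0.05, Pold1 being the 1 gene that did without it and with the wash run as a block. Same-numbered arrays shared a wash run and, by the recorded scan dates, were scanned next to each other. Those of replicates 1, 3 and 4 were each other's most alike across the groups, a hint from the data. The replication scores of same-numbered arrays were also close in replicates 1, 2 and 4 and both high in replicate 3. In replicate 5 they were 0.12 for knockout and -0.22 for wild type. Over the tested probe sets, the deviations of same-numbered arrays correlated at 0.183, 0.032, 0.278, 0.120 and -0.117 for replicates 1 to 5, not all above 0.1. The labels also tie no number to an animal, litter or day. The numbers were therefore not taken to pair the samples, and the standard errors are unpaired. Of 934 values of single genes under these settings, 21 moved by more than the spread between arrays, most of them with the module block. Of the genes, 13 never changed sign. The cause of these changes was not tested. Signals near the lower end of the array limit the dim genes.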

Other observations

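The 5 genes that ran most opposite to the replication score were chosen after their values were seen. Plbd1, a phospholipase B-like protein, had a Pearson correlation of -0.99 with the score over the 10 arrays, reading 906 and 1218 on knockout and wild type replicate 3 and 1424 to 2417 on the others. Cyp2c68, a cytochrome P450, had -0.97, and read 592 and 842 on the same arrays. Apoc2, an apolipoprotein of lipid particles, had -0.96, with 3685 and 5176 there and 10970 on knockout replicate 1. Tmc4, a transmembrane channel-like protein, had -0.96, with 2033 and 2355. Slc26a6, an anion exchanger of the brush border, had -0.96, with 3229 and 4379. These correlations describe 10 arrays and were picked as the extremes of 8255 genes.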
